A study of Homo sapiens with 12 samples.

Results

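Ribosome biogenesis and RNA polymerase I (Pol I) genes were followed by transcript level in MOLT4, a long-established human cell line of T-cell acute lymphoblastic leukemia (T-ALL). The 52 genes were taken from a list of nucleolar, pre-rRNA processing and Pol I genes. No cut on their values was used, but the list was chosen with earlier results of these data known. All 52 had a row among the 23619 genes of the table, and all 52 were among the 11381 genes that passed the filter of a mean of 1 FPKM (fragments per kilobase of transcript, scaled to the library) over the libraries. The 4 groups were MOLT4 cells held for 6 h in 250 nM SNS-032, 250 nM THAL-SNS-032, 250 nM NVP-2, or 0.1% DMSO, the vehicle. Each group had 3 libraries, 12 in all, every one of them from this 1 cell line with no engineered allele named in the labels. SNS-032 is an inhibitor of several cyclin-dependent kinases that include CDK9, a kinase that releases paused RNA polymerase II. THAL-SNS-032 carries the same inhibitor joined through a linker to a thalidomide-type ligand that binds cereblon, and NVP-2 inhibits CDK9. Whether the 3 libraries of each group were separate cultures is not in the labels, and p-values here measure only how far these libraries spread, which may be technical.

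Ribosome biogenesis begins in the nucleolus, where Pol I copies the rDNA repeats into a long pre-rRNA with the help of UBTF and RRN3. Small nucleolar ribonucleoproteins (snoRNPs) modify this RNA, the small-subunit (SSU) processome folds and cuts its 18S part, and separate sets of factors assemble the 60S and 40S subunits. Rapidly dividing leukemia cells depend on this supply, and many of its genes are targets of MYC. The libraries were poly(A)-selected, so they report the mRNAs of these factors and not pre-rRNA.

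In DMSO the 52 genes were well expressed. Their median DMSO mean was 120.3 FPKM, against 28.0 FPKM for all tested genes, and 48 of 52 lay above the median tested gene. Group means in DMSO ran between 16.9 FPKM for POLR1B and 3548 FPKM for NPM1. The lowest value in any library was 0.372 FPKM, for MPHOSPH10 under NVP-2, and 10 genes were under 1 FPKM in at least 1 library. Low values limit the sizes given for these 10, because a change on the log2(FPKM + 1) scale understates the fall of a gene near 0.

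On the deposited scale, medians of the spike-in RNAs lay between -0.0315 and 0.0393 (log2) around their level in DMSO, whereas the median tested gene was lower with every compound. Library medians of all tested genes stood, relative to DMSO, at -1.92 ± 0.350 in SNS-032, at -1.90 ± 0.0868 in THAL-SNS-032 and at -2.54 ± 0.0813 in NVP-2 libraries (log2, SD, n = 3). Cells were counted and the spike-ins added at lysis, per the labels' protocols, but the number of cells in each lysate and the way the spike-ins entered the scale are not given in the sources used here. From these values alone, fewer cells and less RNA per cell therefore cannot be told apart, and differences below are also given after each library was centred on its own median. SNS-032 replicate 1 stood apart, at -2.32 against -1.68 and -1.77 in its group. All 16 T-lineage markers were at 1 FPKM or more in DMSO, with CD4 lowest at 2.69 FPKM, and 16 of 18 markers of other cells were under 1 FPKM, the exceptions being CD79A at 9.07 and KRT8 at 1.39. The summed T-lineage markers ranged over 1022 to 1716 FPKM under SNS-032, 1765 to 1991 under THAL-SNS-032, 904 to 1083 under NVP-2, and 5140 to 6337 in DMSO. The summed markers of other cells ranged over 5.64 to 11.1 FPKM under SNS-032, 12.4 to 14.3 under THAL-SNS-032, 4.87 to 5.76 under NVP-2, and 13.04 to 14.7 in DMSO, so with THAL-SNS-032 alone their range overlapped that of DMSO. The part of either list in the results was not tested.

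Promoter windows show what the genes share in sequence. RefSeq windows on GRCh38.p14, from 250 bases before to 50 bases after the start of transcription, were matched for 44 of the 52 genes. The palindrome CACGTG, the E-box that MYC with MAX and related factors bind, lay in a window of 20 of the 44 genes (45.5%), against 13.1% of the 8095 other tested genes with a window. Within 50 bases of the start it lay in 19 of 44 (43.2%), against 5.45% of those other genes. A gene with more than 1 window was counted if any of its windows held the motif. The other motifs searched on both strands were less frequent. CCGGAAGT, an ETS-type motif, was in 11 of 44 (25.0%, against 11.1%), the NRF1 palindrome in 4 (9.09%, against 2.98%), a YY1 motif in 3 (6.82%, against 2.66%), and the BANP palindrome in 1 (2.27%, against 1.14%). A match is a string of letters and not a bound site, and a window with no match says only that these letters are not in it.

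The following 30-base stretches, in the gene's own 5′ to 3′ direction with CACGTG in capitals, are shown because their genes differ in what they did between THAL-SNS-032 and SNS-032. The first 4 belong to genes that were lower under THAL-SNS-032, the next 2 to genes that were higher, and the last 3 to genes that were not called.
WDR43 (chr2:28894658-28894687, + strand): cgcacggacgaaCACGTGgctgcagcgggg
LTV1 (chr6:143843354-143843383, + strand): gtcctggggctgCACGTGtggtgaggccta
BYSL (chr6:41921515-41921544, + strand): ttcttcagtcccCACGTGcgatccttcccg
PNO1 (chr2:68157885-68157914, + strand): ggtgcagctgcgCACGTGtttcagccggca
NAT10 (chr11:34105602-34105631, + strand): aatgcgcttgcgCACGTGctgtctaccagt
MYBBP1A (chr17:4555340-4555369, - strand): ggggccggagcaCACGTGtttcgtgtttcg
FBL (chr19:39846356-39846385, - strand): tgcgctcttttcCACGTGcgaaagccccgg
DDX21 (chr10:68956604-68956633, + strand): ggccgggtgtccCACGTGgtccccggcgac
NOP10 (chr15:34343130-34343159, - strand): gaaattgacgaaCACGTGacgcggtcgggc
The same 6 letters thus stood near the start of genes with very unequal values. Of the 20 genes with CACGTG in the window, 11 were lower, 2 were higher and 7 were not called in that comparison, with a median difference of -0.68. Of the 24 without it, 9 were lower, 3 were higher and 12 were not called, with a median of -0.41. Over all tested genes 16.7% were lower and 13.4% higher in that comparison. The shares among other tested genes with CACGTG were not counted, and the part of the motif was not tested. NOP16 and BRIX1, the 2 genes with the largest differences, had no CACGTG in their windows, and the 250 bases before their starts are printed in lower case throughout for that reason.
NOP16 (chr5:176388599-176388848, - strand): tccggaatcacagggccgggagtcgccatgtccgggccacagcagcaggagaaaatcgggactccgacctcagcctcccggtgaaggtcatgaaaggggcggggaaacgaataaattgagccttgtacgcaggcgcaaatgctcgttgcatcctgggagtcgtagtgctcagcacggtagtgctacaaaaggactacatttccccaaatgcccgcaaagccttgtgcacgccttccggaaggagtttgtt
BRIX1 (chr5:34915461-34915710, + strand): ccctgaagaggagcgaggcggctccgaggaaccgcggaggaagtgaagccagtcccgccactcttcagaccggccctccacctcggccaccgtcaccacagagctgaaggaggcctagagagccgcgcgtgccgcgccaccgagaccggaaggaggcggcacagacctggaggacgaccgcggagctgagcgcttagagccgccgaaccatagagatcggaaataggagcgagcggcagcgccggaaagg

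The comparisons with DMSO asked what each compound did to these transcripts within 6 h. On the deposited scale all 52 genes fell under SNS-032, all 52 under THAL-SNS-032, and all 52 under NVP-2 as well, with no overlap between the libraries of each compound and those of DMSO. So did most of the transcriptome. Of all tested genes, 94.6% were called lower under SNS-032, 94.8% under THAL-SNS-032 and 97.1% under NVP-2 (1.54%, 1.37% and 0.448% were called higher), so these counts by themselves set nothing apart, and neither does the lack of overlap, which 94.8%, 95.9% and 97.8% of all tested genes showed. The sizes were larger than those of the median gene. The median change of the 52 was -2.69 under SNS-032, against -1.92 over all tested genes, -2.99 under THAL-SNS-032, against -1.90, and -3.84 under NVP-2, against -2.54. With SNS-032 44 of the 52 fell by more than the median gene, under THAL-SNS-032 48 did, and under NVP-2 51 did. The median of the 52 genes stood at 14.7% of its DMSO level under SNS-032, at 11.8% under THAL-SNS-032 and at 5.25% under NVP-2. Adjusted p-values of the 52 were at most 2.21e-05 under SNS-032, 0.000232 under THAL-SNS-032 and 2.83e-07 under NVP-2 (limma, Benjamini-Hochberg over 11381 genes), and no call was lost when any 1 of the 12 libraries was left out.

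**Figure D1:**
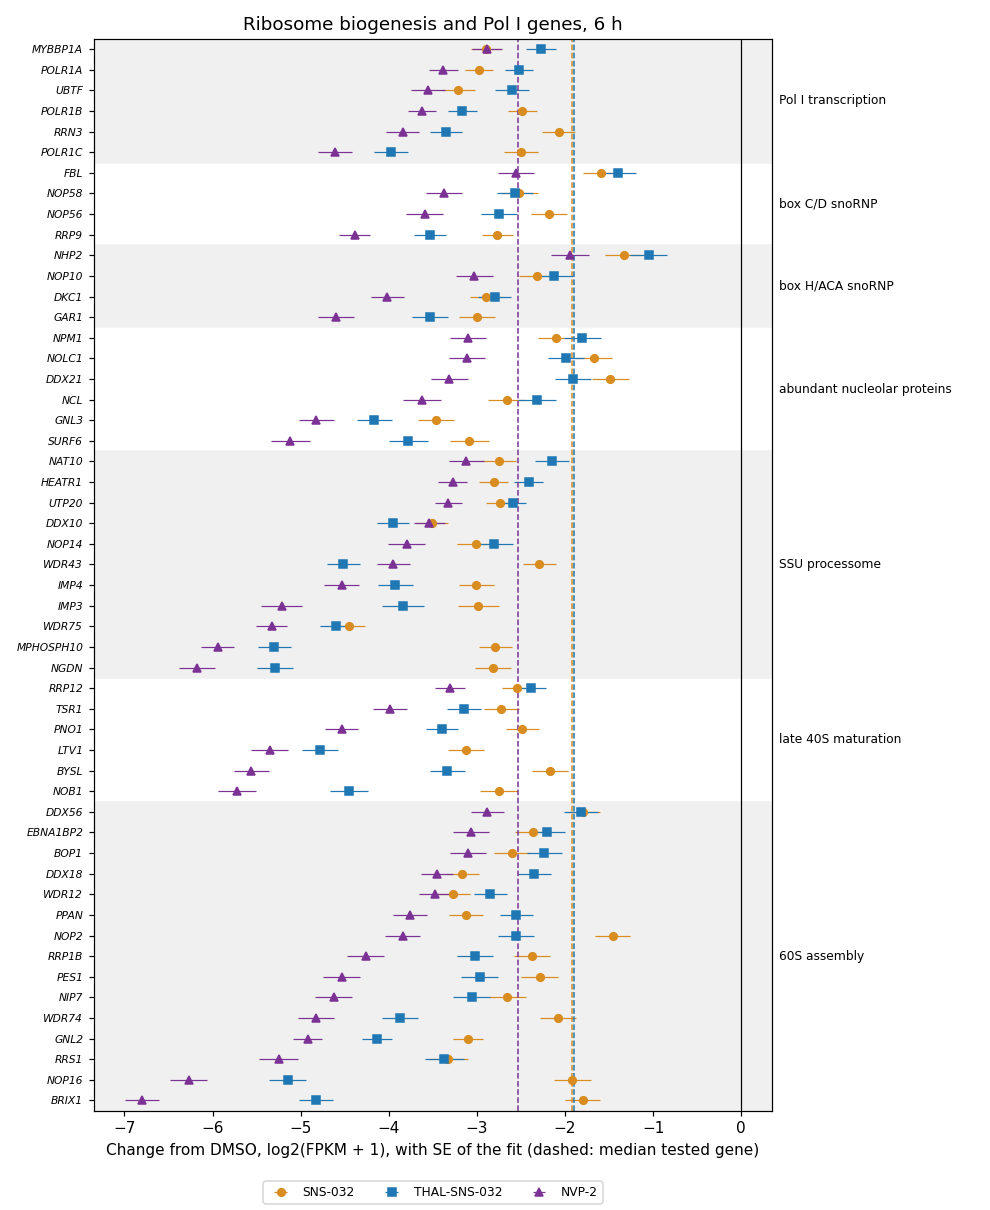
Change from DMSO of each of the 52 genes, on the log2(FPKM + 1) scale along the horizontal axis, with the SE of the fit as bars, grouped by role. Circles are SNS-032, squares THAL-SNS-032 and triangles NVP-2, and the dashed lines mark the median tested gene of each compound (-1.92, -1.90 and -2.54), the first 2 of which nearly coincide.

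Median centring, which takes out the shift shared by a library, kept most of the genes on the low side. With SNS-032 37 of 52 were called lower and 8 higher after centring, where 31.1% of all tested genes were called lower and 52.6% higher. With THAL-SNS-032 39 were lower and 6 higher (29.2% and 57.2% of all tested genes), and under NVP-2 44 were lower and 2 higher (28.1% and 59.7%). The median of the 52 genes became -0.52 under SNS-032, where that of all tested genes became 0.25. It became -0.74 under THAL-SNS-032, beside 0.36, and -0.88 under NVP-2, beside 0.42. For 31 of the 52 genes the call was lower after centring with all 3 compounds. FBL and NHP2 were the 2 genes called higher with all 3. Under quantile normalization, which gives every library the same set of values, only NHP2 of these 2 stayed higher. The shares of all tested genes called lower, or higher, with all 3 compounds were not counted, so these counts by themselves set nothing apart.

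**Figure D2:**
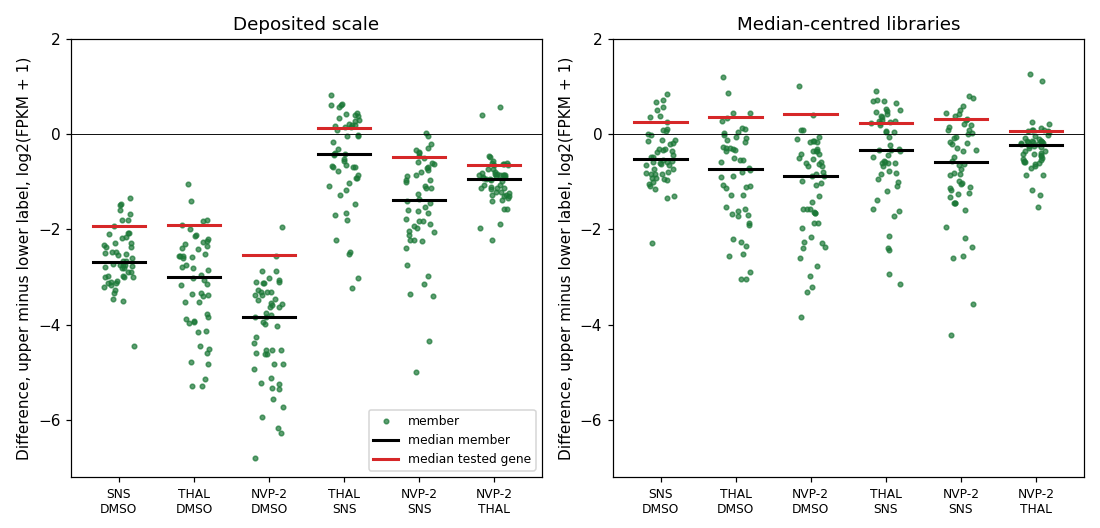
Differences of the 52 genes (points) in the 6 comparisons on the deposited scale (left) and after median centring (right), in log2(FPKM + 1), with the median of the 52 in black and the median of all tested genes in red. SNS is SNS-032 and THAL is THAL-SNS-032, and the black line lies below the red line in all 6 comparisons on both scales.

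The 6 Pol I transcription genes fell by medians of -2.70 under SNS-032, -2.89 under THAL-SNS-032 and -3.59 under NVP-2. After centring 5 of 6 were still called lower with each compound, beside 31.1%, 29.2% and 28.1% of all tested genes in that order. UBTF had 9.22, 16.6 and 14.5 FPKM under SNS-032, 19.5, 22.0 and 20.0 under THAL-SNS-032, 9.57, 11.2 and 9.59 under NVP-2, and 113, 139 and 139.9 in DMSO. UBTF binds along the rDNA and holds it open for Pol I. Its levels under SNS-032 and NVP-2 overlapped, those under THAL-SNS-032 lay above both, and all lay far below DMSO (changes of -3.22, -2.61 and -3.56 under SNS-032, under THAL-SNS-032 and under NVP-2, or -1.05, -0.35 and -0.60 centred). POLR1C had 8.79, 16.8 and 14.8 FPKM under SNS-032, 4.07, 4.05 and 4.04 under THAL-SNS-032, 1.95, 2.59 and 2.24 under NVP-2, and 71.2, 78.7 and 85.8 in DMSO. POLR1C, a subunit that Pol I shares with Pol III, fell stepwise over the compounds with no overlap between any groups, by -2.50, -3.97 and -4.61 (-0.33, -1.72 and -1.65 centred). RRN3 had 8.87, 15.9 and 14.5 FPKM under SNS-032, 4.21, 5.17 and 4.58 under THAL-SNS-032, 2.79, 3.08 and 3.18 under NVP-2, and 52.3, 54.9 and 63.1 in DMSO. RRN3, which brings Pol I to the promoter, ranked in the same order, and its change under SNS-032 of -2.07 turned to 0.10 after centring, which was not called. Reads of RRN3 may be shared with its pseudogenes RRN3P1, RRN3P2 and RRN3P3, which the table also lists, at 5.68 to 15.2 FPKM in DMSO libraries, so its values are less certain.

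Transcripts of the catalytic Pol I subunits were lower in level than those of the factors. POLR1A had 1.07, 2.25 and 1.76 FPKM under SNS-032, 2.42, 2.73 and 2.71 under THAL-SNS-032, 0.876, 1.09 and 1.03 under NVP-2, and 17.5, 19.5 and 22.8 in DMSO. POLR1B had 1.35, 2.85 and 2.59 FPKM under SNS-032, 0.943, 1.16 and 0.877 under THAL-SNS-032, 0.422, 0.432 and 0.490 under NVP-2, and 16.5, 16.2 and 17.9 in DMSO. POLR1A and POLR1B are the largest and second largest subunits, and their values ranked differently between THAL-SNS-032 and SNS-032. POLR1A was higher in all 3 THAL-SNS-032 libraries than in any SNS-032 library, and POLR1B was lower in all 3. Of all tested genes 25.5% were higher and 15.9% lower in this way. The POLR1A call was marginal (adjusted p = 0.0485, limma) and was lost in 11 of the 12 fits that left out a library. MYBBP1A had 5.19, 8.45 and 7.42 FPKM under SNS-032, 10.8, 12.3 and 10.6 under THAL-SNS-032, 6.77, 7.40 and 6.78 under NVP-2, and 50.7, 60.5 and 63.0 in DMSO. MYBBP1A, a nucleolar MYB-binding protein that takes part in Pol I transcription and rRNA processing, kept 12.1% of its DMSO level under SNS-032, 19.3% under THAL-SNS-032 and 12.02% under NVP-2.

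Box C/D snoRNP genes, which encode the proteins that guide 2′-O-methylation of rRNA, fell by medians of -2.35 under SNS-032, -2.66 under THAL-SNS-032 and -3.48 under NVP-2. FBL had 192, 323 and 313 FPKM under SNS-032, 284, 333 and 308 under THAL-SNS-032, 130.4, 154 and 129 under NVP-2, and 701, 867 and 879.8 in DMSO. FBL, which encodes the methyltransferase fibrillarin, kept 33.8% of its DMSO transcript level under SNS-032, 37.8% under THAL-SNS-032 and 16.9% under NVP-2. Its falls of -1.59, -1.40 and -2.56 turned to 0.58, 0.86 and 0.40 after centring, called higher each time. This did not hold under quantile normalization. There FBL was called lower under SNS-032 and NVP-2 and was not called under THAL-SNS-032 (-0.0018). NOP56 had 123, 222 and 207 FPKM under SNS-032, 111, 124 and 125 under THAL-SNS-032, 62.2, 73.8 and 63.9 under NVP-2, and 713, 865 and 872 in DMSO. NOP56, a core scaffold protein of the same particle, was as abundant as FBL in DMSO and fell further, by -2.18, -2.75 and -3.59 (-0.01, -0.49 and -0.63 centred). RRP9 had 11.5, 18.9 and 17.7 FPKM under SNS-032, 8.39, 9.16 and 8.96 under THAL-SNS-032, 4.17, 4.67 and 4.46 under NVP-2, and 97.8, 119.9 and 122 in DMSO. RRP9 belongs to the U3 snoRNP, which starts SSU processome assembly, and it fell most of the 4, by -2.77, -3.53 and -4.39 (-0.60, -1.28 and -1.43 centred). The fourth gene, NOP58, partner of NOP56, had means of 50.2 ± 14.5 FPKM under SNS-032, 47.3 ± 5.48 under THAL-SNS-032, 26.5 ± 1.88 under NVP-2 and 284 ± 20.8 in DMSO (SD, n = 3).

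Box H/ACA snoRNP genes encode the pseudouridylation particle, and their medians were -2.61, -2.46 and -3.52 under SNS-032, under THAL-SNS-032 and under NVP-2. NHP2 had 149.9, 270.2 and 253 FPKM under SNS-032, 239.9, 293 and 264 under THAL-SNS-032, 137, 162 and 129.9 under NVP-2, and 494, 586 and 576 in DMSO. NHP2, a small core protein, had the smallest fall of all 52 genes with each compound, and its changes of -1.34, -1.05 and -1.94 turned to 0.83, 1.20 and 1.02 after centring. GAR1 had 16.0, 30.9 and 26.1 FPKM under SNS-032, 15.3, 17.9 and 14.9 under THAL-SNS-032, 6.84, 7.87 and 6.66 under NVP-2, and 181, 201 and 205 in DMSO. GAR1, another core protein of the same particle, fell by more than the median gene, by -3.002, -3.53 and -4.60 (-0.83, -1.28 and -1.64 centred). DKC1 had 22.2, 36.2 and 36.3 FPKM under SNS-032, 31.7, 35.6 and 31.9 under THAL-SNS-032, 12.8, 14.3 and 13.8 under NVP-2, and 217, 243 and 248.5 in DMSO. DKC1, which encodes the pseudouridine synthase dyskerin, had overlapping transcript levels with THAL-SNS-032 and SNS-032 and lower ones in NVP-2 libraries. NOP10 had 73.3, 122 and 124 FPKM under SNS-032, 107, 135 and 116 under THAL-SNS-032, 60.7, 69.1 and 58.9 under NVP-2, and 447, 543 and 578 in DMSO. NOP10, a small core protein as well, followed the same order. Among the 4 genes of this particle the share of the DMSO mean left under NVP-2 thus ran over 3.64% for GAR1, 5.77% for DKC1, 12.04% for NOP10 and 25.9% for NHP2.

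Genes of the abundant nucleolar proteins had medians of -2.38, -2.15 and -3.47 under SNS-032, under THAL-SNS-032 and under NVP-2. NPM1 had 573, 976 and 989 FPKM under SNS-032, 936, 1094 and 1013 under THAL-SNS-032, 383, 461 and 393 under NVP-2, and 3120.1, 3746 and 3779.7 in DMSO. NPM1, a histone-binding chaperone that organizes the outer nucleolus, changed by -2.10, -1.80 and -3.10, or 0.07, 0.45 and -0.14 centred, of which only the second was called. NCL had 171, 317 and 295 FPKM under SNS-032, 300.4, 341 and 321 under THAL-SNS-032, 122, 143 and 124 under NVP-2, and 1384, 1713 and 1721 in DMSO. NCL, which encodes nucleolin, kept 16.2% of its DMSO transcript level under SNS-032, 20.0% under THAL-SNS-032 and 8.06% under NVP-2. DDX21 had 37.8, 70.4 and 63.8 FPKM under SNS-032, 37.5, 45.7 and 40.4 under THAL-SNS-032, 13.96, 16.2 and 14.6 under NVP-2, and 143, 158 and 172 in DMSO. DDX21, an RNA helicase of the nucleolus, fell by -1.49, -1.91 and -3.32 and stood at 0.68, 0.35 and -0.36 after centring. GNL3 had 16.6, 32.0 and 26.7 FPKM under SNS-032, 13.6, 15.8 and 14.4 under THAL-SNS-032, 8.503, 9.08 and 9.02 under NVP-2, and 247, 286 and 304 in DMSO. GNL3, or nucleostemin, a GTPase of dividing cells, kept 8.99%, 5.23% and 3.18% of its DMSO mean under SNS-032, under THAL-SNS-032 and under NVP-2. SURF6 had 5.34, 11.1 and 8.66 FPKM under SNS-032, 3.65, 5.92 and 4.45 under THAL-SNS-032, 1.20, 1.48 and 0.986 under NVP-2, and 68.0, 78.8 and 81.2 in DMSO. SURF6, a nucleolar matrix protein, fell by -3.09, -3.78 and -5.12 (-0.91, -1.52 and -2.16 centred). NOLC1, a chaperone of snoRNPs, had means of 88.4 ± 25.6 FPKM under SNS-032, 68.6 ± 5.57 under THAL-SNS-032, 30.9 ± 2.86 under NVP-2 and 276 ± 26.3 in DMSO (SD, n = 3).

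SSU processome genes had a lower median under THAL-SNS-032 than the groups above, with medians of -2.82 under SNS-032, -3.93 under THAL-SNS-032 and -3.95 under NVP-2. The difference between groups of genes was not tested. After centring 11 of 11 were called lower under SNS-032, 10 under THAL-SNS-032, and again 11 under NVP-2 (31.1%, 29.2% and 28.1% of all tested genes). MPHOSPH10 had 7.96, 15.5 and 13.1 FPKM under SNS-032, 1.24, 1.38 and 1.12 under THAL-SNS-032, 0.372, 0.487 and 0.453 under NVP-2, and 84.8, 87.1 and 90.1 in DMSO. MPHOSPH10, which joins the U3 snoRNP with IMP3 and IMP4, had no overlap between any 2 of the groups (-2.79, -5.30 and -5.94 under SNS-032, under THAL-SNS-032 and under NVP-2, or -0.62, -3.04 and -2.98 centred). NGDN had 10.7, 21.9 and 17.7 FPKM under SNS-032, 1.85, 2.12 and 2.27 under THAL-SNS-032, 0.607, 0.839 and 0.562 under NVP-2, and 118, 117 and 125 in DMSO. NGDN, or neuroguidin, another processome component, behaved likewise (-2.82, -5.29 and -6.18, or -0.65, -3.04 and -3.22 centred). WDR75 had 1.83, 3.91 and 2.72 FPKM under SNS-032, 2.24, 2.48 and 2.32 under THAL-SNS-032, 0.887, 1.17 and 1.02 under NVP-2, and 76.1, 81.0 and 84.0 in DMSO. WDR75 belongs to the t-UTP subcomplex, which links the processome to Pol I transcription. It had the largest fall of the 52 genes under SNS-032, and the compounds lay close together (-4.45, -4.60 and -5.33, or -2.28, -2.35 and -2.37 centred). WDR43 had 13.1, 24.0 and 20.3 FPKM under SNS-032, 2.999, 3.58 and 3.01 under THAL-SNS-032, 4.91, 5.68 and 5.05 under NVP-2, and 89.0, 94.6 and 102 in DMSO. WDR43, a second t-UTP protein, had its lowest levels under THAL-SNS-032 and not under NVP-2.

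DDX10 had 2.05, 4.09 and 3.28 FPKM under SNS-032, 1.79, 2.29 and 1.88 under THAL-SNS-032, 2.69, 3.29 and 2.92 under NVP-2, and 40.2, 46.4 and 49.4 in DMSO. DDX10, an RNA helicase of the processome, was the only other gene of the 52 whose mean was lowest under THAL-SNS-032, and its SNS-032 and NVP-2 libraries overlapped. NAT10 had 12.4, 20.7 and 21.5 FPKM under SNS-032, 25.8, 29.7 and 27.2 under THAL-SNS-032, 12.4, 14.8 and 13.4 under NVP-2, and 109.6, 128 and 139.9 in DMSO. NAT10, the acetyltransferase of 18S rRNA, fell least of the group under THAL-SNS-032 (-2.75, -2.15 and -3.12, or -0.58, 0.11 and -0.16 centred). IMP3 had 12.8, 30.3 and 20.2 FPKM under SNS-032, 10.1, 12.5 and 9.39 under THAL-SNS-032, 3.54, 3.48 and 3.36 under NVP-2, and 148, 178 and 169 in DMSO. IMP3 fell by -2.98, -3.84 and -5.22 (-0.81, -1.58 and -2.26 centred), and it was the most abundant of the 11 in DMSO. HEATR1 and UTP20, which encode very large scaffold proteins, kept 11.4% and 10.6% of their DMSO means under SNS-032, 15.8% and 12.2% under THAL-SNS-032, and 7.04% and 5.18% under NVP-2. IMP4 kept 12.2%, 5.86% and 3.57% with the 3 compounds in that order, and NOP14 kept 12.1%, 13.5% and 6.33%.

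Late 40S maturation genes had the lowest median of the role groups under NVP-2, at -4.94, beside -3.37 under THAL-SNS-032 and -2.63 under SNS-032, and after centring 5 of 6 were called lower under SNS-032, 6 under THAL-SNS-032 and again 6 under NVP-2 (31.1%, 29.2% and 28.1% of all tested genes). BYSL had 11.9, 23.1 and 19.1 FPKM under SNS-032, 6.44, 8.81 and 6.63 under THAL-SNS-032, 0.804, 0.744 and 0.730 under NVP-2, and 75.1, 82.8 and 88.7 in DMSO. BYSL, or bystin, which binds the pre-40S particle, stood below 1 FPKM in every NVP-2 library and fell by -2.17, -3.33 and -5.56 (0.00, -1.08 and -2.60 centred). NOB1 had 13.8, 28.9 and 23.3 FPKM under SNS-032, 5.20, 6.64 and 5.58 under THAL-SNS-032, 1.59, 1.70 and 2.16 under NVP-2, and 135, 149 and 159 in DMSO. NOB1, the endonuclease that makes the final cut of 18S rRNA, fell by -2.75, -4.45 and -5.72 (-0.58, -2.19 and -2.76 centred). LTV1 had 9.27, 19.6 and 15.01 FPKM under SNS-032, 3.46, 4.42 and 3.49 under THAL-SNS-032, 2.05, 2.37 and 2.20 under NVP-2, and 122, 132 and 137 in DMSO. LTV1, a pre-40S assembly factor, kept 11.2%, 2.91% and 1.70% of its DMSO mean under SNS-032, under THAL-SNS-032 and under NVP-2. PNO1 had 6.82, 13.1 and 10.2 FPKM under SNS-032, 4.41, 5.31 and 4.46 under THAL-SNS-032, 1.57, 1.58 and 1.64 under NVP-2, and 57.6, 56.4 and 63.6 in DMSO. PNO1, the RNA-binding partner of NOB1, kept 17.0%, 7.98% and 2.69% in the same order. The remaining genes, TSR1 and RRP12, kept 14.1% and 15.5% under SNS-032, 9.76% and 17.2% under THAL-SNS-032, and 4.65% and 7.97% under NVP-2.

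The 15 genes of 60S assembly had medians of -2.37, -2.97 and -4.26 under SNS-032, under THAL-SNS-032 and under NVP-2 and single changes under NVP-2 between -6.80 and -2.88. BRIX1 had 39.0, 70.1 and 64.1 FPKM under SNS-032, 6.00, 6.77 and 5.34 under THAL-SNS-032, 0.794, 0.799 and 0.751 under NVP-2, and 185, 197 and 213 in DMSO. BRIX1, a Brix-domain protein that helps to form the 60S particle, was the gene with the largest fall of the 52 under NVP-2, and it kept 29.1% of its DMSO level under SNS-032, 3.05% under THAL-SNS-032 and 0.394% under NVP-2. The changes were -1.80, -4.83 and -6.80, or 0.37, -2.57 and -3.84 after centring, so under SNS-032 BRIX1 fell by less than the median gene. NOP16 had 29.4, 58.3 and 45.4 FPKM under SNS-032, 3.84, 4.02 and 3.20 under THAL-SNS-032, 0.905, 1.43 and 1.12 under NVP-2, and 148, 172 and 174 in DMSO. NOP16, a 60S assembly factor and a known MYC target, showed the same steps with no overlap (-1.92, -5.15 and -6.27, or 0.25, -2.89 and -3.31 centred). NOP2 had 30.03, 54.5 and 49.0 FPKM under SNS-032, 18.9, 21.3 and 18.8 under THAL-SNS-032, 6.67, 7.93 and 7.85 under NVP-2, and 107, 127 and 128 in DMSO. NOP2, a methyltransferase of 28S rRNA, was called higher after centring under SNS-032 and lower with the others (-1.46, -2.56 and -3.84, or 0.71, -0.30 and -0.88 centred).

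EBNA1BP2 had 31.8, 55.6 and 52.9 FPKM under SNS-032, 48.5, 52.6 and 51.7 under THAL-SNS-032, 26.1, 30.7 and 26.1 under NVP-2, and 214, 244 and 259.8 in DMSO. EBNA1BP2, the human partner of the 60S factor RRS1, was the most abundant of the 15 in DMSO, and its changes were -2.37, -2.21 and -3.07 (-0.20, 0.05 and -0.11 centred). RRS1 had 6.48, 14.6 and 11.7 FPKM under SNS-032, 9.43, 11.2 and 9.62 under THAL-SNS-032, 1.68, 2.29 and 2.09 under NVP-2, and 106, 111 and 125 in DMSO. RRS1 itself overlapped between THAL-SNS-032 and SNS-032 and was lower in all 3 NVP-2 libraries. WDR74 had 21.5, 39.9 and 34.7 FPKM under SNS-032, 7.78, 8.79 and 8.12 under THAL-SNS-032, 3.79, 4.20 and 3.36 under NVP-2, and 115, 142 and 149 in DMSO. WDR74, which acts in the release of assembly factors from the pre-60S particle, ranked like BRIX1 with a smaller range. The PeBoW complex, which processes 5.8S and 28S rRNA, consists of PES1, BOP1 and WDR12. Its genes kept 20.4%, 16.4% and 9.54% of their DMSO means under SNS-032, 11.99%, 20.8% and 12.8% under THAL-SNS-032, and 3.45%, 11.2% and 7.85% under NVP-2, so PES1 was the lowest of the complex under NVP-2 and the highest under SNS-032. The helicase genes DDX56 and DDX18 kept 28.5% and 10.6% under SNS-032, 27.5% and 19.0% under THAL-SNS-032, and 12.6% and 8.39% under NVP-2. GNL2, NIP7 and RRP1B kept 10.8%, 15.5% and 19.2% under SNS-032, 4.64%, 10.9% and 11.6% under THAL-SNS-032, and 2.19%, 2.82% and 4.36% under NVP-2.

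**Figure D3:**
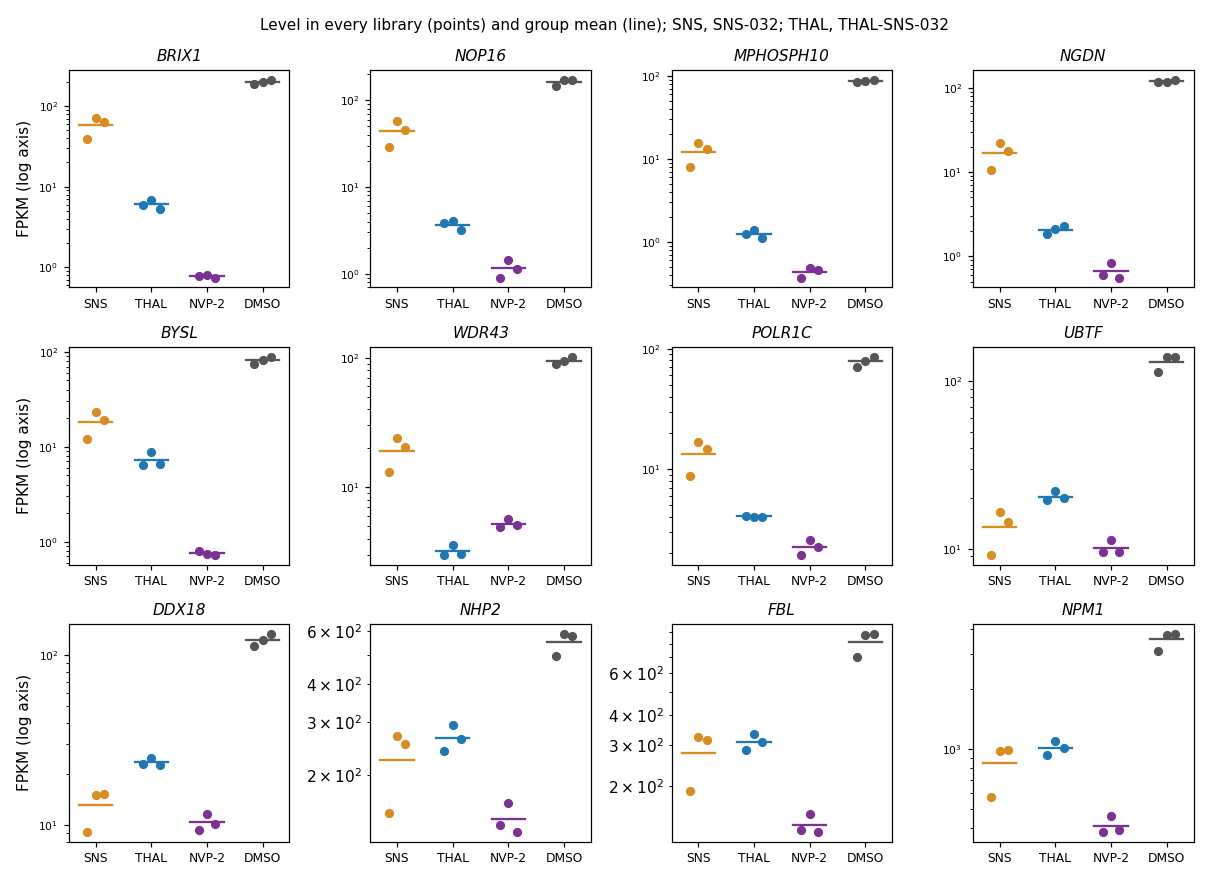
FPKM on a log axis in each library (points) and the group mean (line) for 12 of the genes, where SNS is SNS-032 and THAL is THAL-SNS-032. BRIX1, NOP16, MPHOSPH10, NGDN, BYSL and POLR1C step down over the 3 compounds from left to right, WDR43 is lowest under THAL-SNS-032, and the 3 libraries of DMSO lie above all others for each gene.

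THAL-SNS-032 and SNS-032 share the kinase-binding part and differ by the added linker and cereblon ligand, and they were used at the same dose for the same time. The comparison asked where the 2 differ. Of the 52 genes 22 were lower under THAL-SNS-032 than under SNS-032, 6 were higher and 24 were not called, while 16.7% of all tested genes were lower and 13.4% higher. The median difference was -0.42 for the 52 genes and 0.14 over all tested genes, and 34 of 52 lay below the median gene. After centring 29 were lower and 19 higher, where 23.1% of all tested genes were lower and 51.2% higher, and the 22 lower and 6 higher genes of the deposited scale were all called in the same direction. Centring moves every gene of a comparison by the same amount, here a small one (median of the 52 from -0.42 to -0.34). The shared direction was therefore nearly fixed in advance and is no separate support. P-values of this and the next comparisons were adjusted over all 11381 genes within each of the 3 pairs of compounds.

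The lower genes were led by NOP16, with means of 3.69 ± 0.433 FPKM under THAL-SNS-032, against 44.4 ± 14.5 under SNS-032 (SD, n = 3), a difference of -3.23 (SE 0.21, adjusted p = 1.7e-07, limma). BRIX1 followed at 6.03 ± 0.716 FPKM under THAL-SNS-032, against 57.7 ± 16.5 under SNS-032, a difference of -3.02 (SE 0.19, adjusted p = 1.58e-07). MPHOSPH10 differed by -2.51, NGDN by -2.47 and WDR43 by -2.22, so of the 5 largest differences 2 belonged to 60S assembly and 3 to the SSU processome. Differences of more than 2-fold were also found for WDR74 (-1.80), NOB1 (-1.70), LTV1 (-1.66), POLR1C (-1.47), RRN3 (-1.28), BYSL (-1.16), NOP2 (-1.10) and GNL2 (-1.03), which makes 13 genes in all. Of all 11381 tested genes, 892 were called lower by 2-fold or more in this comparison. The 9 further lower genes were IMP4, PNO1, IMP3, RRP9, GNL3, SURF6, POLR1B, PES1 and RRP1B, between -0.92 and -0.65. Of the 22 genes, 17 were called whichever library was left out, and the calls of GNL3, IMP3, PES1, RRP1B and SURF6 were each lost in at least 1 of the 12 fits. In the fit of only the 6 libraries of this pair, GNL3, PES1, RRP1B, RRP9 and SURF6 lost their calls (adjusted p = 0.0549 to 0.1162, limma).

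The 6 higher genes came from different steps, and their differences were all under 2-fold. DDX18, a 60S helicase gene, had 22.8, 24.8 and 22.7 FPKM under THAL-SNS-032, against 9.12, 14.995 and 15.3 under SNS-032, a difference of 0.82 (SE 0.19, adjusted p = 0.00436), and it was called in all 12 fits that left out a library. MYBBP1A differed by 0.63 (adjusted p = 0.0126) and lost its call without THAL-SNS-032 replicate 2. UBTF at 0.61 (adjusted p = 0.0276), NAT10 at 0.61 (adjusted p = 0.0307) and PPAN at 0.57 (adjusted p = 0.0352) lost theirs without any 1 of the 3 THAL-SNS-032 libraries, and PPAN also without NVP-2 replicate 1 or 3. POLR1A at 0.45 (adjusted p = 0.0485) lost its call in 11 of 12 fits and kept it only without SNS-032 replicate 2. In the fit of only the 6 libraries of this pair, MYBBP1A, UBTF, NAT10, PPAN and POLR1A all lost their calls (adjusted p = 0.1397 to 0.1831, limma). PPAN, a 60S factor, overlaps the readthrough gene PPAN-P2RY11, which had 1.68, 3.69 and 2.57 FPKM under THAL-SNS-032, against 0.922, 1.59 and 1.63 under SNS-032, and reads of the 2 genes may not be separable.

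The Pol I group was split, with POLR1A, UBTF and MYBBP1A higher and POLR1B, POLR1C and RRN3 lower. Box H/ACA genes were all among the uncalled. DKC1 differed by 0.10 (95% interval -0.30 to 0.50), NHP2 by 0.28 (-0.17 to 0.74), and GAR1 by -0.53 (adjusted p = 0.0623). In the abundant nucleolar group NPM1 differed by 0.30 (95% interval -0.14 to 0.74) and NCL by 0.35 (-0.11 to 0.81). NOP58 at -0.05 (-0.48 to 0.39) lay nearest to 0 among the C/D genes, and NOP56 at -0.57 (adjusted p = 0.0534) was the 1 uncalled gene whose interval reached past 2-fold. For 23 of the 24 uncalled genes the interval lay within 2-fold, so a 2-fold difference was outside it, but smaller ones were not. Over all 52 genes the interval lay within 2-fold for 26, beside 76.9% of all tested genes.

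Without SNS-032 replicate 1 the median difference of the 52 genes became -0.67, POLR1A lost its call, and NOP56, NOP58, GAR1, NOLC1, DDX21, WDR75, DDX10, TSR1, RRS1 and NIP7 were added as lower. Without SNS-032 replicate 2 the median difference became -0.25, the lower calls of GNL3, SURF6, PES1 and RRP1B were lost, and HEATR1 and WDR12 were added as higher. The median ran over -0.50 to -0.37 when any other library was left out. The number of genes called higher ran over 1 to 8 and of those called lower over 17 to 32 as single libraries were left out.

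**Figure D4:**
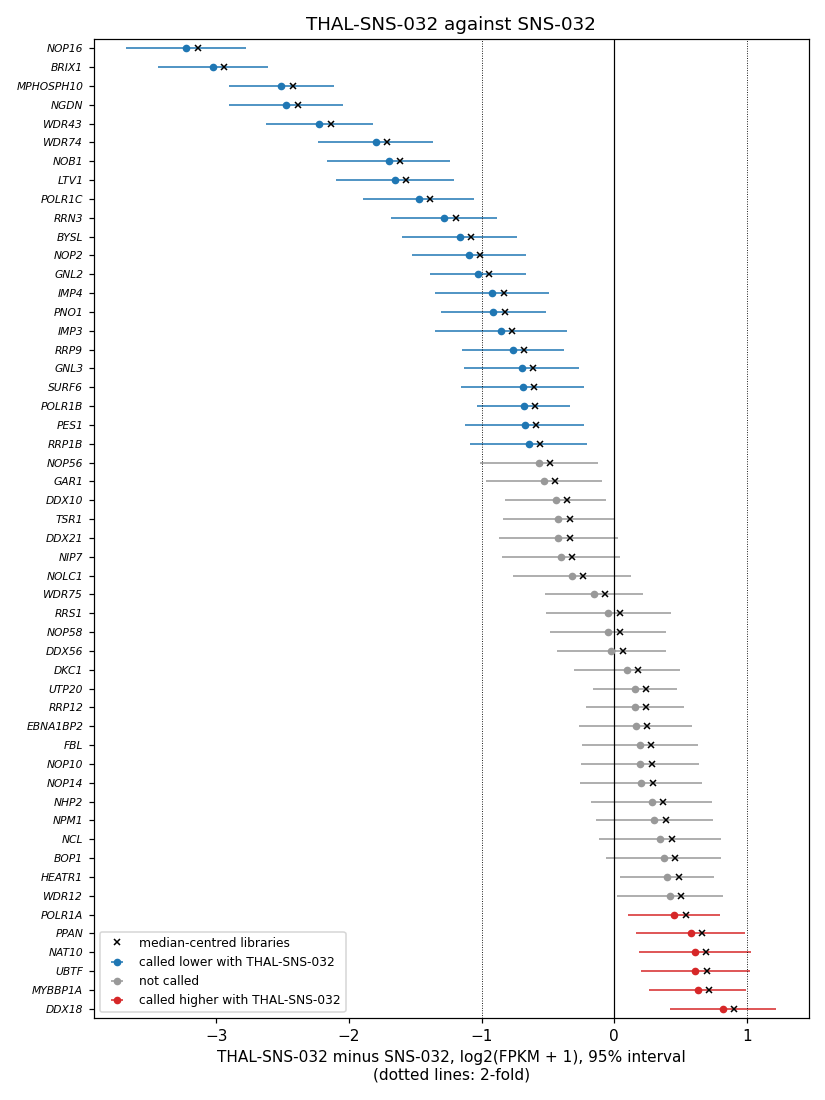
Difference between THAL-SNS-032 and SNS-032 for each of the 52 genes, in log2(FPKM + 1) with the 95% interval as a bar, and crosses for the value after median centring. Blue genes (22) were called lower, red genes (6) higher and grey genes (24) were not called, and dotted lines mark 2-fold.

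NVP-2 against SNS-032 compared separate inhibitors at the same dose and time. With NVP-2 45 of the 52 genes were lower than under SNS-032 and 7 were not called, beside 52.6% of all tested genes called lower and 0.782% higher, and 43 were lower in every NVP-2 library (47.5% of all tested genes). The median difference was -1.38, beside -0.48 over all tested genes. After centring, 34 were called lower and 11 higher (24.8% and 58.9% of all tested genes). BRIX1 at -5.00 and NOP16 at -4.35 again differed most (SE 0.19 and 0.21, adjusted p = 5.59e-10 and 1.88e-09, limma), followed by BYSL at -3.39 and NGDN at -3.36. The uncalled genes were BOP1 (-0.50, 95% interval -0.93 to -0.06, adjusted p = 0.0523), NAT10 (-0.37, -0.79 to 0.05), UBTF (-0.34, -0.75 to 0.07), DDX18 (-0.29, -0.69 to 0.11), WDR12 (-0.20, -0.60 to 0.19), DDX10 (-0.03, -0.41 to 0.35) and MYBBP1A (0.01, -0.35 to 0.38). All 7 were called higher after centring, and 5 of them, UBTF, NAT10, BOP1, WDR12 and DDX18, were called lower without SNS-032 replicate 1 on the deposited scale. Centring raised every gene by the same amount in this comparison (median of the 52 from -1.38 to -0.59). The positive sign of these 7, which lay near 0 before, follows from that shift. The 95% interval of 10 of the 52 genes lay within 2-fold, beside 57.5% of all tested genes. Left-out libraries ended 5 of the 45 calls, those of HEATR1, NHP2, NOP10, POLR1A and PPAN.

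Between NVP-2 and THAL-SNS-032, 50 of the 52 genes were lower under NVP-2, 1 was higher and 1 was not called, beside 70.0% of all tested genes lower and 0.993% higher. The median difference was -0.93, beside -0.64 over all tested genes, and after centring 34 were lower and 4 higher (29.4% and 38.0% of all tested genes). The largest differences were those of BYSL (-2.23, SE 0.20, adjusted p = 2.96e-06, limma), BRIX1 (-1.98), RRS1 (-1.88) and PES1 (-1.57). BYSL stood at 0.759 ± 0.0394 FPKM under NVP-2, 7.29 ± 1.32 under THAL-SNS-032 and 18.1 ± 5.65 under SNS-032 (SD, n = 3). WDR43 was the 1 gene called higher, with 4.91, 5.68 and 5.05 FPKM under NVP-2 and 2.999, 3.58 and 3.01 under THAL-SNS-032, a difference of 0.57 (SE 0.19, adjusted p = 0.0155, 1.27 centred). Its call was lost without NVP-2 replicate 2, THAL-SNS-032 replicate 1 or THAL-SNS-032 replicate 3, and left-out libraries also ended the lower calls of POLR1B, RRN3, IMP4 and LTV1. DDX10 was also higher in all 3 NVP-2 libraries, at 0.41 (adjusted p = 0.0502, 1.11 centred), and was not called on the deposited scale. In the fit of only the 6 libraries of this pair, DDX10 was called higher (adjusted p = 0.0039, limma). The interval of 5 of the 52 genes lay within 2-fold, beside 46.4% of all tested genes.

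Across the compounds the mean was lowest under NVP-2 for 50 of the 52 genes and under THAL-SNS-032 for WDR43 and DDX10. The median tested gene was also lowest under NVP-2, at -2.54 from DMSO, beside -1.92 under SNS-032 and -1.90 under THAL-SNS-032. Shares of all tested genes for these rankings were not counted, so the rankings by themselves set nothing apart. For 31 of the 52 genes the means ranked SNS-032, THAL-SNS-032, NVP-2 from high to low, and for 19 THAL-SNS-032 came first. Neighbours in this order overlapped for many genes between THAL-SNS-032 and SNS-032, where 19 of 52 were lower in every THAL-SNS-032 library and 7 higher (15.9% and 25.5% of all tested genes). Between NVP-2 and THAL-SNS-032, 50 were lower in every NVP-2 library and 2 higher (84.7% and 2.49%). MYC transcripts, of a transcription factor that binds E-boxes, stood at 100.1, 169.9 and 166 FPKM under SNS-032, 12.9, 17.0 and 13.8 under THAL-SNS-032, 6.21, 7.57 and 6.40 under NVP-2, and 299.7, 340.2 and 352 in DMSO, and their part in these results was not tested.

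Other genes of the pathway gave a wider view. Further lists of Pol I subunits and factors, SSU processome and 40S factors, 60S factors and rRNA-processing nucleases held 111 genes, of which 109 were tested. All 109 were called lower with each compound, beside 94.6%, 94.8% and 97.1% of all tested genes, so this count by itself sets nothing apart. Medians of the 109 were -2.52 under SNS-032, -2.68 under THAL-SNS-032 and -3.65 under NVP-2, beside -1.92, -1.90 and -2.54 over all tested genes. After centring 68, 71 and 81 were called lower (31.1%, 29.2% and 28.1% of all tested genes), while 28, 29 and 16 were called higher (52.6%, 57.2% and 59.7%). Between THAL-SNS-032 and SNS-032 33 were lower, 15 higher and 61 not called (median -0.09), beside 16.7% of all tested genes lower and 13.4% higher. With NVP-2 85 of them were lower than under SNS-032 (52.6% of all tested genes), and 90 were lower than under THAL-SNS-032 (70.0%). The 5 subunits shared by Pol I, II and III fell least, by medians of -1.39, -1.30 and -1.98, and 4, 4 and 3 of them were called higher after centring under SNS-032, under THAL-SNS-032 and under NVP-2, beside the 52.6%, 57.2% and 59.7% of all tested genes. Among the 20 exosome and nuclease genes of rRNA processing 3 were lower, 3 higher and 14 not called between THAL-SNS-032 and SNS-032, counts near the shares over all tested genes, with a median of 0.18. The 38 further SSU processome and 40S genes had 16 lower and 7 higher (median -0.18), and the 36 further 60S genes had 10 lower and 3 higher (median -0.15).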

How the data were processed

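MOLT4 RNA was measured in 12 libraries. Per the labels' protocols, cells were counted, spike-in RNAs (ERCC) were added at lysis and stranded libraries were made from poly(A) RNA. The authors deposited FPKM per gene, made with HISAT and Cufflinks 2.0.0 on hg19, per the submitters' processing notes. The annotation and the way spike-ins entered the scale are not given in the sources used here. The table holds no counts, so depth is unknown and no counting interval is given.

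The table has 23713 rows, of which 92 for ERCC and 2 for repeated names were left out. The 11381 genes averaging at least 1 FPKM entered 1 limma 3.58.1 fit (R 4.3.3, trend) of log2(FPKM + 1) over 4 groups, with 8 residual degrees of freedom and no further normalization. It gave 6 two-sided comparisons, with genes called at a Benjamini-Hochberg adjusted p under 0.05 over all tested genes. The 4 groups shared 1 estimate of the spread. Library medians of all tested genes had an SD of 0.350 under SNS-032 and of 0.0813 to 0.0911 in the other groups. P-values of this fit therefore do not measure the spread of the compared groups alone. Alternatives changed the pseudocount, filter, scaling, libraries, replicate block and fold minimum. The test was checked on simulated data with independent genes, the same spread in every group and no shift of whole libraries. That check does not cover the library shifts and the unequal spread of the real groups. Python 3.11.15 with matplotlib 3.10.9 drew the figures.

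The members, role groups, pathway lists, motifs and alternatives were chosen with earlier results of these data known. All members could be named. Values in every library were due for the highest-expressed member and the largest and smallest changes of each role group, and for the 4 largest differences between compounds in each direction. Other members with such values were chosen after they were seen. Promoter sequences come from RefSeq (GRCh38.p14), another build than the deposited values, and 8 members had no window.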

Additional observations from a re-analysis of the deposited data

How the results depend on the processing

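The count of 52 members lower than DMSO with each compound stayed at 52 under both pseudocounts, both filters, equal ERCC medians, pair-only fits, the replicate block, the 2-fold minimum and each left-out library. It was 37 to 49 under median centring and quantile normalization, which remove a shift of whole libraries by construction. Members called higher than DMSO were then 8 and 4 with SNS-032 (9 with centring and the block), 6 and 2 with THAL-SNS-032 (6) and 2 and 1 with NVP-2 (2), against 0 on the deposited scale, and 11 and 13 (11) for NVP-2 against SNS-032, against 0.

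For THAL-SNS-032 against SNS-032, the 6 higher calls became 2 without a filter, 19 with centring, alone or with the block, 18 with quantiles, 1 in the pair-only fit, 0 at 2-fold or more, and 1 to 8 with a library left out. The 22 lower calls became 13 at 2-fold, where 892 of the 11381 tested genes were lower. For NVP-2 against THAL-SNS-032, the 1 higher call became 2 (pseudocount 0.1, a mean of 5 FPKM, equal ERCC medians, pair-only, the block), 0 (pseudocount 5, 2-fold), 4 (centring, alone or with the block), 7 (quantiles) and 0 to 2 with a library left out. The 50 lower calls became 33 with quantiles or the centred block and 22 at 2-fold, where 2262 of the 11381 tested genes were lower. The cause was not tested.

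Gene by gene, same-number libraries did not deviate together: 1 of 18 same-number pairs had a correlation over 0.1 (range -0.151 to 0.171). A correlation over genes cannot show a shift of whole libraries, so it does not settle whether replicate numbers pair the samples. The library median of all tested genes was lowest for replicate 1 in each group. It stood, relative to DMSO, at -2.32 with SNS-032, -1.96 with THAL-SNS-032, -2.61 with NVP-2 and -0.083 in DMSO (log2). With the replicate block, THAL-SNS-032 against SNS-032 gave 7 higher and 25 lower, NVP-2 against SNS-032 gave 47 lower, and NVP-2 against THAL-SNS-032 gave 2 higher and 50 lower.

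Centring turned the sign from negative to positive for 12 of the 52 genes with SNS-032 against DMSO, for 10 with THAL-SNS-032 and for 4 with NVP-2, for 3 with THAL-SNS-032 against SNS-032, for 14 with NVP-2 against SNS-032 and for 9 with NVP-2 against THAL-SNS-032. Only 118 differences of single members were followed over all alternatives, and the following values, the same with or without the block and in brackets with quantiles, are those of them that turned. Against DMSO with SNS-032 these included BRIX1 0.37 (0.11), BYSL 0.0017, DDX21 0.68 (0.46), FBL 0.58, NHP2 0.83 (0.24), NOP16 0.25 (0.016), NOP2 0.71 (0.54), NPM1 0.066 and RRN3 0.10 (0.029). With THAL-SNS-032 these included DDX21 0.35, EBNA1BP2 0.051, FBL 0.86, NAT10 0.11, NHP2 1.20 (0.39) and NPM1 0.45, and with NVP-2 they included FBL 0.40 and NHP2 1.02 (0.46). For NVP-2 against SNS-032 these included BOP1 0.29 (0.30), DDX10 0.76 (0.73), DDX18 0.50 (0.61), NAT10 0.42 (0.51), UBTF 0.45 (0.55) and WDR12 0.58 (0.66), and for THAL-SNS-032 against SNS-032 they included NOP58 0.040. Left-out libraries turned uncalled differences near 0, and over these fits DDX10 ran over -0.24 to 0.13 and MYBBP1A over -0.16 to 0.14 for NVP-2 against SNS-032, and DKC1 over -0.13 to 0.21 and NOP58 over -0.31 to 0.11 for THAL-SNS-032 against SNS-032. Over the 118 differences, 2522 of 2714 alternative values kept direction and call.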
